A study of Mus musculus with 6 samples.

Results

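The transcripts described here encode 36 proteins that store, translate, tail or destroy maternal mRNA in the mouse oocyte, outside the CCR4-NOT deadenylase complex. They were taken by name, and all 36 were found among the 27179 Entrez gene identifiers counted in these libraries, 3 of them under a newer symbol: Papd7 is now Tent4a, Zcchc6 is Tut7 and Zcchc11 is Tut4. All 36 passed the filter on low counts, among 14957 genes tested. RNA came from germinal vesicle (GV) oocytes, which are arrested in meiotic prophase. The knockout group was 3 pools of about 10 oocytes in which Cre driven by the oocyte promoter Zp3 had removed the floxed exon 5 of Prdm10, a zinc finger gene of the PRDM family. The wildtype group was 3 such pools, labelled only as wildtype, and neither strain nor age was given in the sources used here.

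A fully grown oocyte stops transcribing and lives on the mRNA it has stored until the embryo's own genome is switched on. Storage proteins such as ZAR1, ZAR1L, YBX2, LSM14 and DDX6 package dormant mRNA, CPEB1 and DAZL bind the 3′ untranslated region and control when a message is polyadenylated and translated, and deadenylation, uridylation and decapping later clear the stock. The m6A reader YTHDF2 and the AU-rich element binder ZFP36L2 are both known to be required in the mouse oocyte.

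Each library held 22492228 to 38831227 counts. Prdm10 had 2.80, 3.82 and 3.05 CPM (counts scaled to a common library size) in the knockout pools, against 10.4, 23.1 and 22.96 CPM in the wildtype pools. The knockout pools lay below every wildtype pool, although the count covers the whole gene and not exon 5 alone. Wildtype replicate 1 stood apart, with Spearman correlations across genes of 0.9751 and 0.9758 with the other wildtype pools, which correlated at 0.9958. Those other wildtype pools correlated at 0.9779 to 0.9814 with the knockout pools, more closely than with wildtype replicate 1. Counts of calls are therefore also given without wildtype replicate 1. The labels do not say that pools came from separate mice, and p-values measure the spread between pools. The 12 oocyte markers summed to 25553 to 27526 CPM in knockout and 21366 to 26528 CPM in wildtype pools, and all were present. Of the 12, 0 passed in edgeR, beside 11.2% of all tested genes. Without wildtype replicate 1, Nlrp5 was higher (log2 0.32, adjusted p = 0.00395, edgeR) and Bmp15 lower (-0.16, adjusted p = 0.0318, edgeR). Granulosa and cumulus markers summed to 86.1 to 110 CPM in knockout and 92.4 to 105 CPM in wildtype pools, with Foxl2, Wnt4 and Tnfaip6 under 1 CPM throughout. Of the 16 tested, 1 rose and 0 fell, beside 5.87% and 5.34% of all tested genes. The 1 that rose was the cumulus expansion gene Ptgs2, with 2.86 ± 0.594 CPM in knockout and 1.07 ± 0.477 CPM in wildtype pools (SD, n = 3 each, log2 1.47, adjusted p = 0.0446, edgeR). Without wildtype replicate 1, 2 rose (Ptgs2 and Has2) and 1 fell, beside 16.7% and 17.7% of all tested genes. The 1 that fell was Cyp19a1 (log2 -0.64, adjusted p = 0.000857, edgeR). Theca and stroma markers summed to 3.83 to 5.43 CPM in knockout and 2.93 to 4.92 CPM in wildtype pools. Blood, immune and endothelial markers summed to 117 to 121 CPM in knockout and 36.5 to 82.2 CPM in wildtype pools, most of it Pecam1 (103 to 105 CPM in knockout and 30.4 to 75.7 CPM in wildtype pools, adjusted p = 0.143, edgeR; 0.000207 without wildtype replicate 1), while Cdh5 and Hba-a1 were at 0. Of the 3 tested, 1 rose and 0 fell. The 1 that rose was the macrophage marker Cd68, with 10.6 ± 0.407 CPM in knockout and 2.10 ± 1.33 CPM in wildtype pools (SD, n = 3 each, log2 2.28, adjusted p = 0.0108, edgeR). Without wildtype replicate 1, 2 rose (Cd68 and Pecam1) and 0 fell. Ptprc, Lyz2 and Hbb-bs of the same list stayed under 1 CPM in every pool. The part of other cells in the results was not tested. CPM is relative to the total of each library, so it does not show the amount of mRNA per oocyte. In pooled oocytes a lower level in every cell and a smaller share of intact cells cannot be told apart.

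The levels of the 36 transcripts spanned more than 3 orders of magnitude. To compare genes, CPM was divided by the length in kilobases of the longest annotated transcript. On that scale Zar1 led with 583 ± 23.8 in knockout and 701 ± 20.1 in wildtype pools (SD, n = 3 each), followed by Zar1l with 537 ± 55.7 and 597 ± 110. Next came Tent5b, a member of a poly(A) polymerase family, with 493 ± 16.5 in knockout and 420 ± 54.7 in wildtype, Cpeb1 with 447 ± 8.73 and 369 ± 112, and Dazl with 288 ± 13.0 and 339 ± 8.204. In wildtype 12 of the 36 lay in the top 10% of 13820 tested genes with a known length, and Zar1 exceeded 99.6% of them. The order was close from gene to gene: 27 of 35 neighbouring pairs overlapped between wildtype pools, including Zar1 with Zar1l and Cpeb1 with Dazl. These named overlaps came from wildtype replicate 1, with Zar1 at 698 and Zar1l at 722, and Cpeb1 at 239 and Dazl at 347. In wildtype replicates 2 and 3 Zar1 had 723 and 683, against 553 and 516 for Zar1l. Cpeb1 there had 431 and 436, against 331 and 339 for Dazl.

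**Figure D1:**
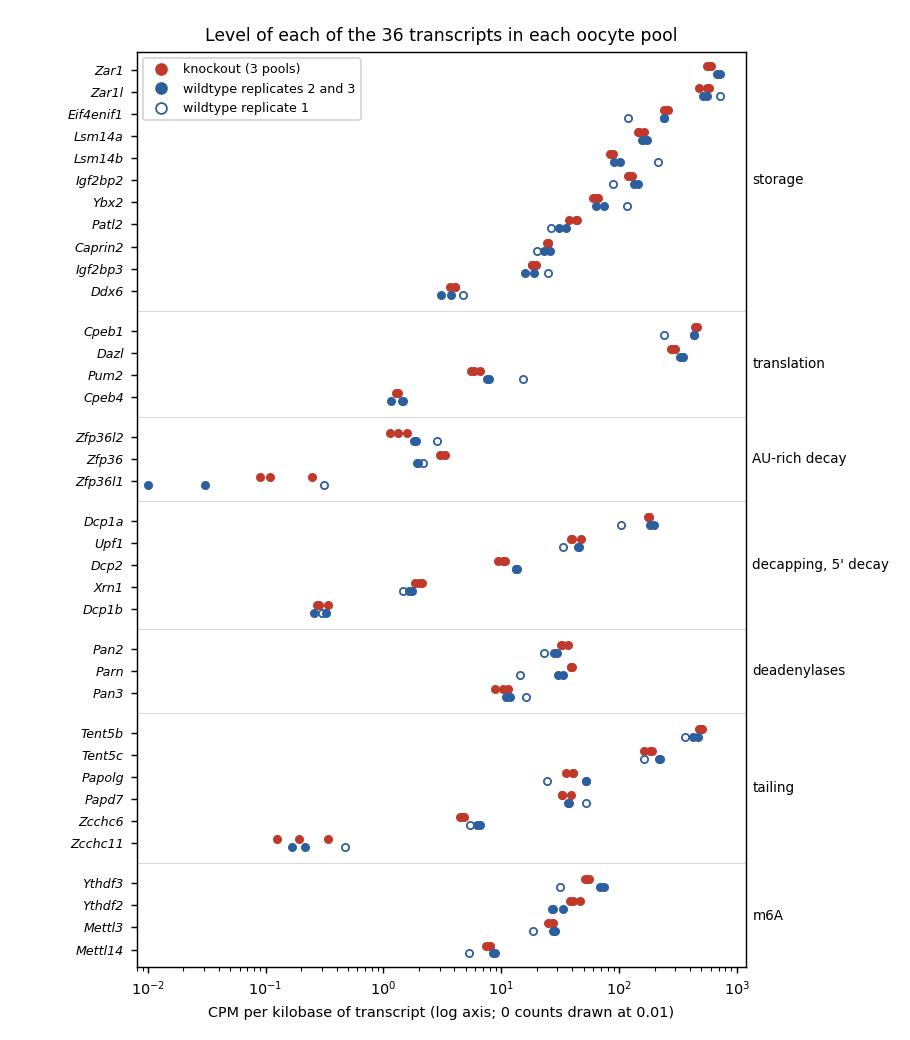
CPM per kilobase of transcript on a log axis for the 36 transcripts, grouped by function, with 1 point per oocyte pool (knockout above wildtype; the open circle is wildtype replicate 1). Zar1, Zar1l, Tent5b, Cpeb1 and Dazl lie at the right, while Dcp1b, Zcchc11 and Zfp36l1 lie below 1.

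At the other end, 3 transcripts stayed below 1 CPM per kilobase in wildtype pools: Dcp1b at 0.300 ± 0.0355 in knockout and 0.295 ± 0.0355 in wildtype, Zcchc11 at 0.219 ± 0.111 and 0.284 ± 0.162, and Zfp36l1 at 0.149 ± 0.0866 and 0.115 ± 0.173. Some related transcripts differed widely in level, and others little. The decapping activator Dcp1a was the more abundant, with a log2 ratio of Dcp1b to Dcp1a of -9.23 ± 0.160 within knockout pools and -9.04 ± 0.590 within wildtype pools. The log2 ratio of Cpeb4 to Cpeb1 was -8.42 ± 0.0685 in knockout and -8.04 ± 0.623 in wildtype pools. That of the uridyltransferase Zcchc6 to its relative Zcchc11 was 4.53 ± 0.779 in knockout and 4.56 ± 0.898 in wildtype pools (SD, n = 3 each). Zar1 to Zar1l, by contrast, had a log2 ratio of 0.12 ± 0.167 in knockout and 0.25 ± 0.258 in wildtype pools, and Ythdf2 to Ythdf3 one of -0.37 ± 0.205 in knockout and -0.91 ± 0.581 in wildtype pools.

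Together the 36 transcripts held 1.14 to 1.17% of the counts in knockout pools and 1.104 to 1.201% in wildtype pools, so their summed share overlapped between genotypes. Against wildtype, 1 of the 36 rose in knockout oocytes, 0 fell and 35 did not pass an adjusted p of 0.05 (edgeR quasi-likelihood test, Benjamini-Hochberg over all 14957 genes), where 11.2% of all tested genes were called (5.87% higher and 5.34% lower). At an unadjusted p under 0.05 there were 4 higher and 5 lower, beside 28.8% of all tested genes (14.2% higher and 14.6% lower), and DESeq2 called 6, of which 2 were higher and 4 lower, beside 17.9% of all genes (8.89% higher and 8.97% lower). The median log2 fold change of the 36 was -0.03 and their median absolute change 0.25, beside 0.00 and 0.30 over all tested genes. None reached a fitted 2-fold change, which 9.05% of tested genes did. For 29 of the 35 that did not pass, the 95% interval lay within 2-fold either way, and for 6 it reached further: Lsm14b, Pum2, Zfp36l1, Zfp36l2, Parn and Zcchc11. The knockout pools lay entirely above the wildtype pools for 8 transcripts and entirely below for 7, where 40.2% of tested genes were apart (21.0% above and 19.2% below).

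Without wildtype replicate 1 the number called was larger, 6 higher and 9 lower, beside 16.7% and 17.7% of all tested genes, 34.4% together. Without that library 9 members lay entirely above wildtype and 13 entirely below, beside 29.6% and 30.5% of all tested genes, 60.2% together. The higher ones were Zfp36, Zfp36l1, Ythdf2, Patl2, Parn and Pan2, and the lower ones Zcchc6, Papolg, Ythdf3, Dcp2, Pum2, Tent5c, Zar1, Dazl and Igf2bp2. Only Zfp36 and Zfp36l1 of these 15 had a fitted change of at least 1.5-fold. That of Zfp36l1 rested on 0 and 2 counts in wildtype replicates 2 and 3 and is not usable. The median absolute log2 change of the 36 was 0.18 beside 0.26 over all tested genes. With each of the other 5 libraries omitted in turn, edgeR called 0 members, with 3 to 9 at an unadjusted p under 0.05. Those fits called few genes of any kind, 357 to 927 of the 15148 to 15430 tested.

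**Figure D2:**
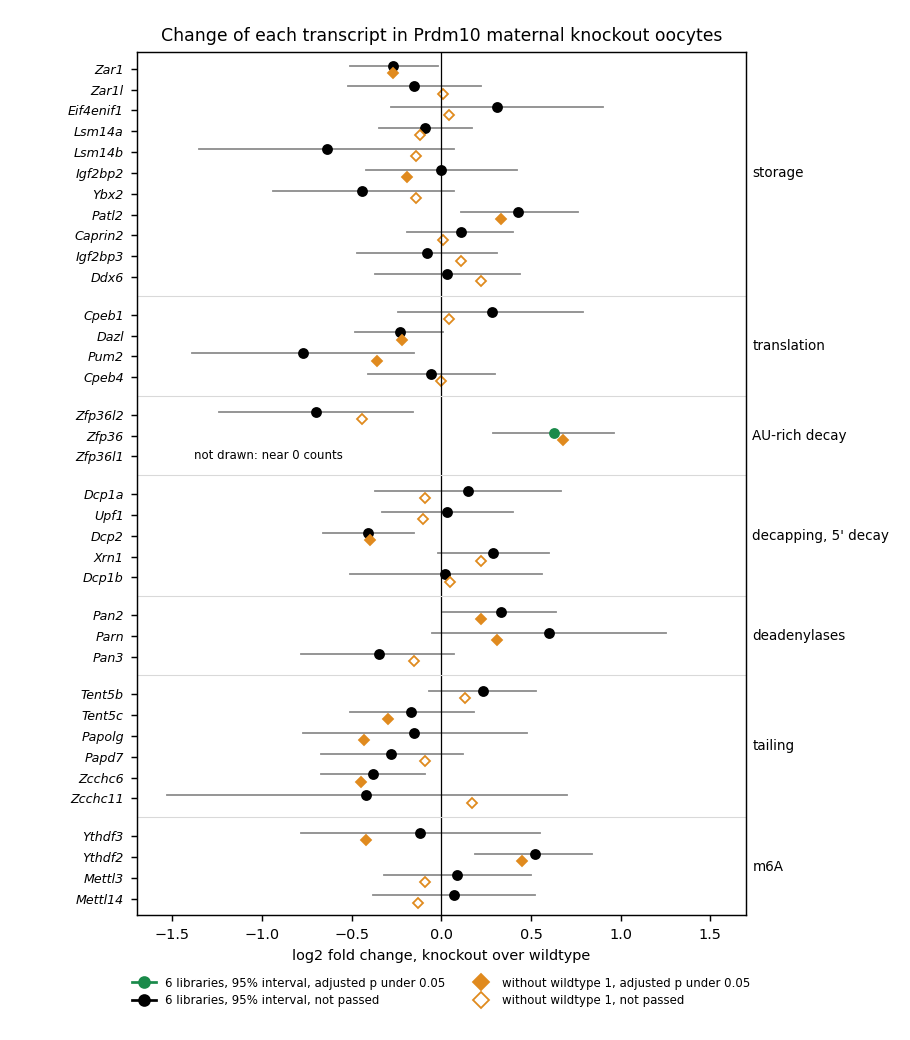
Log2 fold change of knockout over wildtype for 35 transcripts, grouped by function: circles with 95% intervals from all 6 libraries (green where the adjusted p is under 0.05) and diamonds from the fit without wildtype replicate 1 (filled where called). Zfp36 is the only green circle, at 0.63, and most filled diamonds lie within 0.5 of 0.

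The member that rose was Zfp36, which encodes tristetraprolin, a zinc finger protein that binds AU-rich elements and brings in deadenylation (Entrez 22695, GRCm38 chromosome 7, 28376784 to 28379228). It had 9.20, 8.60 and 8.42 CPM in the knockout pools, against 6.05, 5.51 and 5.40 CPM in the wildtype pools. The groups did not overlap, and replicate 1 lay close to the other wildtype pools. The fold change was 1.54 (log2 0.63, SE 0.144, adjusted p = 0.0330, edgeR), and the log2 value was 0.68 without wildtype replicate 1 (adjusted p = 0.00254). The level is low, resting on 312, 322 and 318 counts in knockout and 252, 143 and 118 in wildtype pools. The call was lost whenever another of the 6 libraries was omitted (adjusted p = 0.0871 to 0.157, edgeR), with a log2 fold change of 0.59 to 0.65. Zfp36 belongs to the immediate early genes that handling of tissue can induce, and of 8 other such genes, chosen after its value was seen, 0 passed in edgeR (3 at an unadjusted p under 0.05, 1 in DESeq2). Their log2 fold changes ran from -1.49 (Fosb) to 0.79 (Ier2), with a median of -0.48, 2 above 0 and 6 below. Without wildtype replicate 1, 1 was higher (Ier2) and 1 lower (Junb). The part of handling in the level of Zfp36 was not tested.

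The messages of the Zfp36 family carry the element that their own proteins bind, and stretches of their 3′ untranslated regions are shown for that reason, with each TATTTAT match in capitals (GENCODE M21 on GRCm38, minus strand, 5′ to 3′). The first 2 are from Zfp36, at chr7:28376958-28376987 and chr7:28376925-28376954, then 1 from Zfp36l1 at chr12:80108421-80108450 and 1 from Zfp36l2 at chr17:84184913-84184942.
Zfp36 site a: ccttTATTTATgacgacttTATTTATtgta
Zfp36 site b: agattttatagTATTTATatatattgggtc
Zfp36l1 site: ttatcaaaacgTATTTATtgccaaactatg
Zfp36l2 site: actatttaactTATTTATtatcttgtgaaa
Each of the 3 messages holds 3 such matches, and those of Zfp36 lie within 1 short stretch that begins at base 575 after the stop codon. Cpeb4 was the only other member with 3 matches, so 4 of 36 members (11.1%) had at least 3. Among 12965 tested genes with a 3′ untranslated region of at least 100 bases, 4.1% had at least 3. Those genes had longer untranslated regions, at a median of 3332 bases, than the rest, at 1092. A match is a description of the sequence and not a measured site.

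Zfp36l2, the family member known to be needed for oocyte maturation (Entrez 12193, chromosome 17, 84183924 to 84187947), stood on the other side. It had 4.66, 5.64 and 4.03 CPM in knockout and 10.1, 6.63 and 6.36 CPM in wildtype pools. All knockout pools lay below all wildtype pools, and replicate 1 was the highest of them. The log2 fold change was -0.70 (SE 0.234, adjusted p = 0.0965, edgeR), -0.44 without wildtype replicate 1 (adjusted p = 0.0632), and it passed in DESeq2 alone (adjusted p = 0.0443). Zfp36l1 was at the limit of detection, with 11, 10 and 28 counts in knockout and 39, 0 and 2 in wildtype pools. A count of 0 at that depth allows up to 3 counts, and the groups overlapped through wildtype replicate 1, without which it passed (adjusted p = 0.0216, edgeR) with no usable fold change. Per length, Zfp36 ranked above Zfp36l2 in knockout pools, at 3.13 ± 0.145 and 1.35 ± 0.230 CPM per kilobase. In wildtype pools the levels of Zfp36 and Zfp36l2 overlapped at 2.03 ± 0.125 and 2.18 ± 0.593. This overlap came from wildtype replicate 1, with Zfp36 at 2.17 and Zfp36l2 at 2.86. In wildtype replicates 2 and 3 Zfp36 had 1.97 and 1.93, against 1.88 and 1.80 for Zfp36l2.

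**Figure D3:**
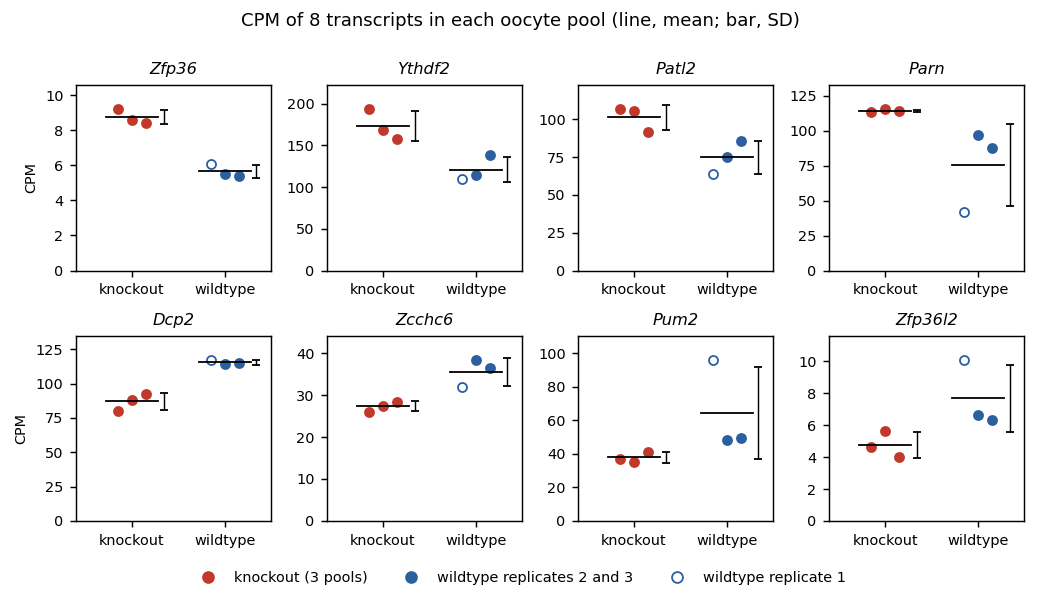
CPM in each oocyte pool (points; the open circle is wildtype replicate 1) with the mean (line) and SD (bar) for 8 transcripts, knockout left of wildtype. The 8 were chosen from the 15 members whose pools did not overlap between genotypes, beside 40.2% of all tested genes. Knockout pools lie above wildtype pools for Zfp36, Ythdf2, Patl2 and Parn, and below for Dcp2, Zcchc6, Pum2 and Zfp36l2. Only Zfp36 passed in edgeR with all 6 libraries.

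Of the 4 m6A genes 0 passed in edgeR (1 higher and 0 lower at an unadjusted p under 0.05, 1 in DESeq2), and 1 was higher and 1 lower without wildtype replicate 1. Ythdf2, whose protein binds m6A-marked mRNA and leads it to decay (Entrez 213541, chromosome 4, 132184916 to 132212256), had 193, 168 and 158 CPM in knockout and 110.2, 114 and 139 CPM in wildtype pools. Every knockout pool was above every wildtype pool, by 0.52 on the log2 scale (SE 0.140, adjusted p = 0.0538, edgeR). It passed without wildtype replicate 1 (0.45, adjusted p = 0.00450) and in DESeq2 (adjusted p = 0.0141). Its relative Ythdf3 had 264, 278 and 285 CPM in knockout and 161, 354 and 383 CPM in wildtype pools. Here the knockout pools lay between wildtype replicate 1 and the other wildtype pools. The log2 fold change was -0.12 (adjusted p = 0.813, edgeR), and -0.42 without replicate 1 (adjusted p = 0.000335). The methyltransferase subunits Mettl3 and Mettl14 had log2 fold changes of 0.09 (95% interval -0.32 to 0.50) and 0.07 (-0.38 to 0.52), and of -0.09 and -0.13 without replicate 1.

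Of 11 storage and mRNP proteins 0 passed in edgeR (1 higher and 1 lower at an unadjusted p under 0.05, 0 in DESeq2), and 1 was higher and 2 lower without wildtype replicate 1. Zar1, the most abundant (Entrez 317755, chromosome 5, 72577113 to 72581361), had 1448, 1517 and 1399 CPM in knockout and 1740, 1802 and 1703 CPM in wildtype pools. The groups were apart, with every knockout pool lower, and a log2 value of -0.27 (SE 0.106, adjusted p = 0.147, edgeR). The value was also -0.27 without wildtype replicate 1, with adjusted p = 0.00290. Zar1l, by contrast, had log2 -0.15 (adjusted p = 0.555, edgeR) and 0.01 without that library, and its pools overlapped.

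Patl2, an RNP protein known for its part in oocyte maturation (Entrez 67578, chromosome 2, 122120108 to 122186189), had 107, 105 and 91.8 CPM in knockout and 63.9, 75.2 and 85.7 CPM in wildtype pools. The groups were apart upward (log2 0.43, SE 0.143, adjusted p = 0.0902, edgeR; 0.33 and adjusted p = 0.0112 without wildtype replicate 1). Its annotated span overlaps B2m and Trim69, so reads could be shared. Lsm14b was low in all knockout pools, at 215, 228 and 224 CPM, against 549, 230.4 and 260.1 CPM in wildtype pools. Its log2 fold change was -0.64 (adjusted p = 0.213, edgeR), and -0.14 without wildtype replicate 1. The remaining storage members are given with all libraries and then without replicate 1. They were Lsm14a (-0.09 and -0.12), Ybx2 (-0.44 and -0.14), Ddx6 (0.03 and 0.22), Eif4enif1 (0.31 and 0.04), Caprin2 (0.11 and 0.01), Igf2bp3 (-0.08 and 0.11) and Igf2bp2. The 95% interval of Igf2bp2 ran from -0.42 to 0.42, and it was lower without replicate 1 (-0.19, adjusted p = 0.0250, edgeR). With all libraries the adjusted p of these members lay between 0.230 and 0.999 (edgeR).

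Of the 4 regulators of translation that read the 3′ untranslated region, 0 passed in edgeR (0 higher and 1 lower at an unadjusted p under 0.05, 1 in DESeq2), and 0 were higher and 2 lower without wildtype replicate 1. Cpeb1, which controls cytoplasmic polyadenylation (Entrez 12877, chromosome 7, 81347026 to 81458001), had 1415, 1395 and 1361 CPM in knockout and 744, 1342 and 1356 CPM in wildtype pools. The knockout pools lay just above wildtype replicates 2 and 3, and replicate 1 was far lower. The log2 fold change was 0.28 (95% interval -0.24 to 0.79, adjusted p = 0.437, edgeR), and 0.04 without that library. Dazl had 891, 815 and 868 CPM in knockout and 1033, 984 and 1008 CPM in wildtype pools, below throughout (log2 -0.23, adjusted p = 0.192, edgeR; -0.22 and adjusted p = 0.010 without replicate 1).

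Pum2, a Pumilio repressor (Entrez 80913, chromosome 12, 8674092 to 8752583), had the lowest log2 fold change of all members, -0.77 (SE 0.269, adjusted p = 0.107, edgeR). Its levels were 37.1, 35.2 and 41.3 CPM in knockout and 96.0, 48.1 and 49.2 CPM in wildtype pools. All knockout pools were lower than all wildtype pools, but the log2 value was -0.36 without replicate 1 (adjusted p = 0.00840). Cpeb4 had 8.23 ± 0.232 CPM in knockout and 8.54 ± 1.10 CPM in wildtype pools (log2 -0.06).

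A cytoplasmic polyadenylation element, TTTTAT or TTTTAAT, lay in the last 100 bases of the annotated 3′ untranslated region of 7 members (19.4%), beside 19.3% of the 12965 tested genes. The sites of a decapping activator, a deadenylase subunit and a storage protein are shown as examples across the classes, with the element in capitals: Dcp1a at chr14:30527010-30527039 (plus strand), Pan2 at chr10:128321305-128321334 (plus strand) and Lsm14a at chr7:34344669-34344698 (minus strand).
Dcp1a site: caaatatatttTTTTAATaaaatttcaaaa
Pan2 site: taaaacagcatgTTTTATaaaataaaagta
Lsm14a site: ccactttgtgtTTTTAATaaaggccatgga
The other members with such a match were Ybx2, Pan3, Papd7 and Mettl14. None of the 7 passed the test in edgeR with all 6 libraries (Pan2 alone at an unadjusted p under 0.05, and 0 in DESeq2). Without wildtype replicate 1, Pan2 passed (log2 0.22, adjusted p = 0.0332, edgeR) and the others did not.

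In the decapping and 5′ decay group, 0 of 5 passed in edgeR (0 higher and 1 lower at an unadjusted p under 0.05, 1 in DESeq2), and 0 were higher and 1 lower without wildtype replicate 1. The catalytic subunit Dcp2 had 80.2, 88.2 and 92.7 CPM in knockout and 117, 114 and 115 CPM in wildtype pools. This was the steadiest wildtype level of the group, and the knockout pools were lower without overlap. The log2 fold change was -0.41 (SE 0.110, adjusted p = 0.0535, edgeR). It passed without wildtype replicate 1 (-0.40, adjusted p = 0.00159), with a stricter filter on low levels (adjusted p = 0.0479) and in DESeq2 (adjusted p = 0.0113). Its activator Dcp1a had 983, 1006 and 999.7 CPM in knockout and 577, 1103 and 1012 CPM in wildtype pools, with log2 0.15 (adjusted p = 0.688, edgeR) that changed sign to -0.09 without replicate 1. The exonuclease Xrn1 was above all wildtype pools at 19.0, 21.7 and 20.5 CPM in knockout against 15.1, 17.99 and 16.97 CPM (log2 0.29, adjusted p = 0.194, edgeR). Upf1, the helicase of nonsense-mediated decay, and Dcp1b had log2 fold changes of 0.03 (95% interval -0.33 to 0.40) and 0.02 (-0.51 to 0.56), and Upf1 was at -0.10 without replicate 1.

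Of the 3 deadenylases 0 passed in edgeR (1 higher and 0 lower at an unadjusted p under 0.05, 0 in DESeq2), and 2 were higher and 0 lower without wildtype replicate 1. Parn, a poly(A)-specific ribonuclease (Entrez 74108, chromosome 16, 13537964 to 13668198), had 113, 115 and 114 CPM in knockout and 41.7, 96.9 and 87.9 CPM in wildtype pools. The groups were apart, and replicate 1 was far below the other wildtype pools. The log2 fold change of 0.60 (adjusted p = 0.201, edgeR) became 0.31 without it (adjusted p = 0.00430). Pan2, the catalytic subunit of the PAN2-PAN3 deadenylase, had 187, 164 and 161 CPM in knockout and 117, 143 and 149 CPM in wildtype pools (log2 0.33, adjusted p = 0.161, edgeR; 0.22 and adjusted p = 0.0332 without replicate 1). Its partner Pan3 had 48.8, 57.3 and 63.7 CPM in knockout and 90.6, 60.5 and 65.5 CPM in wildtype pools, overlapping. The log2 fold change of Pan3 was -0.35 (adjusted p = 0.249, edgeR), and -0.15 without replicate 1 (adjusted p = 0.270, edgeR).

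Of 6 tailing enzymes 0 passed in edgeR (0 higher and 1 lower at an unadjusted p under 0.05, 1 in DESeq2), and 0 were higher and 3 lower without wildtype replicate 1. Zcchc6, the uridyltransferase TUT7, which is known to mark maternal mRNA for removal (Entrez 214290, chromosome 13, 59771876 to 59823169), had 26.0, 27.5 and 28.4 CPM in knockout and 31.9, 38.4 and 36.4 CPM in wildtype pools. The groups did not overlap (log2 -0.38, SE 0.126, adjusted p = 0.0927, edgeR; -0.45 and adjusted p = 0.00211 without wildtype replicate 1; adjusted p = 0.0426 in DESeq2). Tent5b had 1088, 1163 and 1133 CPM in knockout and 828, 979 and 1076 CPM in wildtype pools, higher throughout (log2 0.23, adjusted p = 0.279, edgeR). Tent5c had 923, 1067 and 1038 CPM in knockout and 924, 1254 and 1227 CPM in wildtype pools, with log2 -0.17 (adjusted p = 0.479, edgeR). Without replicate 1 it was -0.30 (adjusted p = 0.00430). Papolg, a nuclear poly(A) polymerase, had 133, 152 and 151 CPM in knockout and 91.9, 194 and 197 CPM in wildtype pools. Its log2 fold change was -0.15 with all libraries (adjusted p = 0.749, edgeR) and -0.43 without replicate 1 (adjusted p = 0.000681). Papd7 was at -0.28 and Zcchc11, with 22 to 118 counts a library, at -0.42 (95% interval -1.53 to 0.70). Without replicate 1 Papd7 was at -0.09 and Zcchc11 at 0.17.

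Wildtype replicate 1 lay over 2-fold from the mean of the other wildtype pools for 7 of the 36, beside 14.0% of all tested genes. It was higher for Lsm14b, Zcchc11 and Zfp36l1 and lower for Eif4enif1, Parn, Papolg and Ythdf3, by 1.16, 1.29 and 4.36 and by -1.02, -1.15, -1.09 and -1.19 on the log2 scale. Dcp1a (-0.87), Cpeb1 (-0.86) and Pum2 (0.98) came close to that. Zar1 (-0.01), Dazl (0.05), Dcp2 (0.04) and Zfp36 (0.15) barely differed in it.

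**Figure D4:**
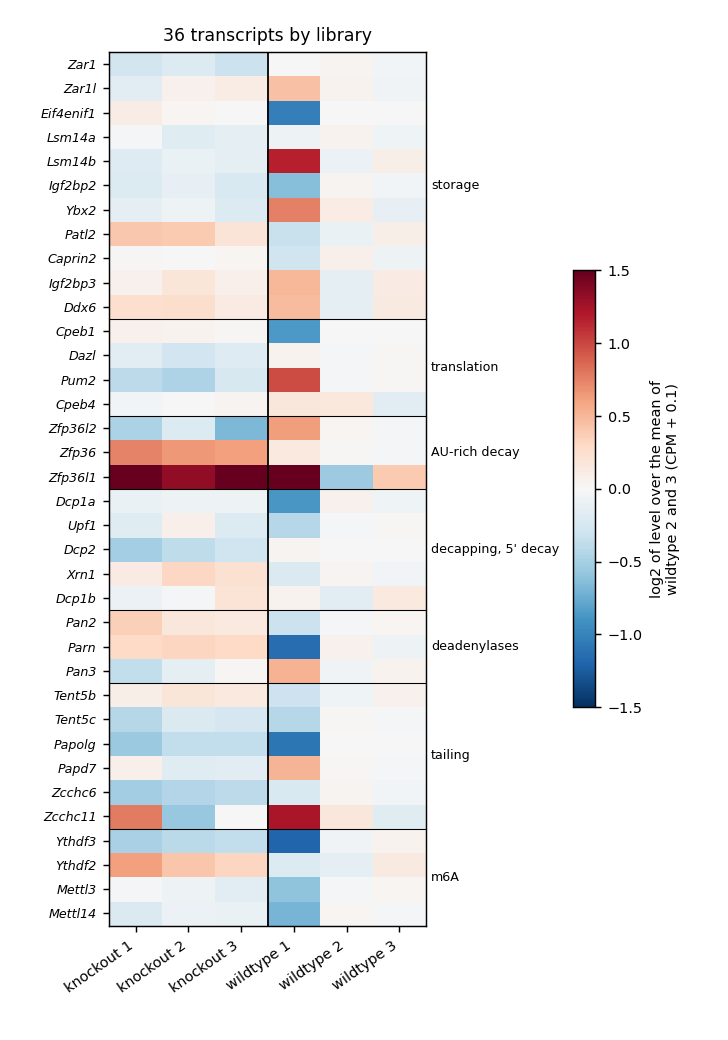
Level of each transcript in each library relative to the mean of wildtype replicates 2 and 3, as log2 of CPM + 0.1, with knockout pools left of wildtype pools (colours end at 1.5 either way, which Zfp36l1 exceeds). The strongest colours outside Zfp36l1 lie in the column of wildtype replicate 1.

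Ratios between related transcripts within a library do not depend on scaling between libraries. Of 11 ratios fixed, Zfp36l2 to Zfp36l1 could not be formed because of a 0 count, and 2 of the other 10 separated the genotypes completely. The log2 ratio of Tent5b to Tent5c per length was 1.54, 1.43 and 1.43 in knockout and 1.14, 0.95 and 1.11 in wildtype pools, a difference of 0.40 that was 0.44 without wildtype replicate 1. The ratio of Pan3 to Pan2 was -2.07, -1.65 and -1.47 in knockout and -0.50, -1.37 and -1.32 in wildtype pools, a difference of -0.67 that was -0.39 without that library. Ythdf2 to Ythdf3 stood at -0.14, -0.42 and -0.54 in knockout and -0.25, -1.33 and -1.16 in wildtype pools, apart only once replicate 1 was left out. Without replicate 1, Zar1 to Zar1l and Igf2bp3 to Igf2bp2 also separated, by -0.27 and 0.30, so that 5 of the 10 were apart. Of single tested genes, 40.2% were apart with all libraries and 60.2% without replicate 1. No such share was computed for ratios of other gene pairs. Mettl14 to Mettl3 differed by -0.01. No test was made of these ratios, since 3 against 3 pools cannot reach a low p in an exact test.

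**Figure D5:**
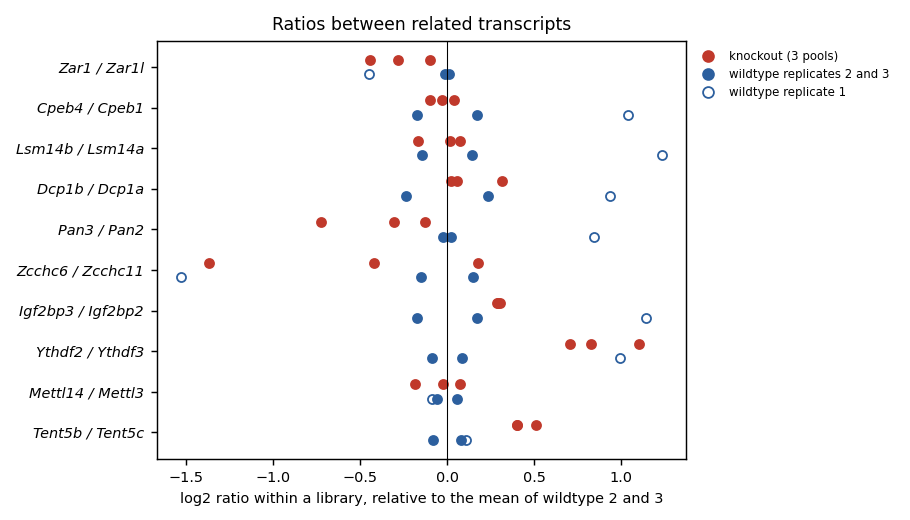
Log2 ratio of related transcripts within each library, relative to the mean of wildtype replicates 2 and 3 (knockout above wildtype; the open circle is wildtype replicate 1). Knockout pools lie right of all wildtype pools for Tent5b to Tent5c and left of them for Pan3 to Pan2.

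Outside the 36, 92 related genes of the same pathways were read from the same fit. Of 91 tested, 3 rose, 3 fell and 85 did not pass, with a median log2 fold change of 0.01. Over all tested genes 11.2% were called (5.87% higher and 5.34% lower). Without wildtype replicate 1 there were 16 higher and 11 lower, beside 16.7% and 17.7% of all tested genes, 34.4% together. Some related genes changed more than any member. Pabpn1l, an oocyte poly(A)-binding protein known to be needed for maternal mRNA decay, fell to 201, 265 and 267 CPM in knockout, against 502, 534 and 556 CPM in wildtype pools (log2 -1.12, adjusted p = 0.00442, edgeR). Cnot6, a catalytic deadenylase subunit of CCR4-NOT, fell (log2 -1.04, adjusted p = 0.00384, edgeR), as did Btg2, an adaptor of that complex (-0.85, adjusted p = 0.0107). Igf2bp1, the scarce relative of Igf2bp2 and Igf2bp3, rose (log2 1.93, adjusted p = 0.00463, edgeR) at 1.94 ± 0.283 CPM in knockout and 0.503 ± 0.0475 CPM in wildtype pools. Skiv2l, the helicase that feeds mRNA to the exosome, and Lsm1, of the ring that binds deadenylated ends, rose by 0.75 (adjusted p = 0.0179, edgeR) and 0.46 (adjusted p = 0.0439, edgeR) on the log2 scale.

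By group, CCR4-NOT and its adaptors had 0 higher and 2 lower of 16, poly(A)-binding proteins 0 and 1 of 5, and relatives of the storage proteins 1 and 0 of 14. The decapping and LSM group had 1 and 0 of 11, and the exosome group 1 and 0 of 17. Nonsense-mediated decay (9 genes), other tailing enzymes (7) and other m6A factors (12) had 0 called in edgeR and in DESeq2, with 1, 0 and 1 at an unadjusted p under 0.05. Without wildtype replicate 1, CCR4-NOT had 0 higher and 4 lower, poly(A)-binding proteins 0 and 1, relatives of the storage proteins 4 and 3, and the decapping and LSM group 2 and 0. The exosome group then had 5 higher and 1 lower, nonsense-mediated decay 2 and 1, other tailing enzymes 0 and 1, and other m6A factors 3 and 0.

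Of 8 transcripts known as targets of CPEB1 or DAZL, 1 rose and 1 fell, where 11.2% of all tested genes were called. Without wildtype replicate 1 there were 3 higher and 3 lower, where 34.4% of all tested genes were called. Sycp3, of the synaptonemal complex and a DAZL target, was listed with its change already known, and rose by 2.37 on the log2 scale (adjusted p = 0.000111, edgeR), with 97.3, 106 and 116 CPM in knockout and 20.0, 20.7 and 21.04 CPM in wildtype pools. Mos, the kinase that drives the MAP kinase pathway in meiosis, fell to 564, 720.2 and 701 CPM in knockout, against 1083, 972 and 990.5 CPM in wildtype pools (log2 -0.62, adjusted p = 0.0274, edgeR). Btg4, the adaptor that recruits CCR4-NOT to maternal mRNA, was below all wildtype pools in knockout (log2 -0.39, adjusted p = 0.0899, edgeR; -0.49 and adjusted p = 7.19e-05 without wildtype replicate 1). Ccnb1 and Plat had log2 fold changes of 0.03 and 0.13, and Tex19.1, Tpx2 and Ddx4 of 0.94, 0.41 and 0.44, with adjusted p of 0.112 to 0.948. Without wildtype replicate 1, Ccnb1 was lower (-0.25, adjusted p = 0.00352, edgeR), Tex19.1 (0.60, adjusted p = 0.000292) and Tpx2 (0.26, adjusted p = 0.0110) were higher, and Plat and Ddx4 had -0.10 and 0.19 and did not pass.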

How the data were processed

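The values the authors deposited are raw counts of reads per Entrez gene, 1 table per library. Per the labels' protocols, RNA was isolated with PicoPure, cDNA was made with a SMARTer low-input kit and libraries with NexteraXT, for single-end reads. STAR 2.7.11a, featureCounts 2.0.3 and GRCm38.p6 are named in the submitters' processing notes. The annotation, the strand setting and the handling of multi-mapped reads were not stated. Of the 36 members 17 overlap another annotated gene, 7 of them a protein-coding one, and could share its reads.

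Symbols and coordinates are from a RefSeq table of GRCm38.p6, lengths and 3′ untranslated regions from the longest GENCODE M21 transcript. Element searches used the sense strand. Genes were filtered with filterByExpr (minimum count 10), scaled by TMM and tested with edgeR 4.0.16's quasi-likelihood test in R 4.3.3, adjusted by Benjamini-Hochberg over all tested genes, after a test on simulated data. CPM uses TMM-scaled totals. A count of 1 is 0.0240 to 0.0457 CPM. Intervals of fold changes are 95% and unadjusted. Alternatives were DESeq2 1.42.0, its size factors within edgeR, no filter, a filter of 5 CPM in 3 libraries, the replicate number as a block and each library left out. No 2 libraries agreed within sampling noise.

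Values in every library were set to be given for members called with all libraries, for those called without wildtype replicate 1 with a log2 change of at least 0.5, and for the most abundant member of each class. The values of other members were added after they were seen. Members and lists were chosen with earlier results of these data known.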

Additional observations from a re-analysis of the deposited data

How the results depend on the processing

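With DESeq2's size factors within edgeR and with no filter on low counts, 1 member was higher and 0 lower, as with the chosen settings. DESeq2 gave 2 higher and 4 lower, and the filter of 5 CPM in 3 libraries gave 1 higher and 1 lower (Dcp2). The replicate block gave 0 and 0 (8 at an unadjusted p under 0.05), with Zfp36 at adjusted p = 0.103 in edgeR. Same-numbered pools correlated at -0.101, -0.018 and -0.113 in their deviations from the group means, and differently numbered pools at -0.0658 to 0.11. With 3 pools a group, such correlations cannot settle whether the replicate numbers pair the samples. With each library left out, members higher ranged from 0 to 6 and members lower from 0 to 9, both maxima without wildtype replicate 1. Over all genes, 1676 were called, against 2671 with DESeq2, 1038 with the 5 CPM filter, 537 with the replicate block and 357 to 5199 with 1 library left out.

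The log2 fold changes of 14 members changed sign under at least 1 alternative, and the cause was not tested. Igf2bp2 was at 0.00 with no filter and 0.03 with the replicate block. The other changes of sign came with 1 library left out, which gave -0.15 to 0.00 for Cpeb4, -0.09 to 0.32 for Dcp1a, -0.08 to 0.10 for Dcp1b, -0.11 to 0.22 for Ddx6, -0.19 to 0.12 for Igf2bp2, -0.22 to 0.11 for Igf2bp3, -0.09 to 0.20 for Mettl3, -0.13 to 0.19 for Mettl14, -0.43 to 0.02 for Papolg, -0.10 to 0.11 for Upf1, -0.42 to 0.10 for Ythdf3, -0.24 to 0.01 for Zar1l and -0.87 to 0.17 for Zcchc11. Zfp36l1 ranged from -0.41 to 3.29, the last fitted without wildtype replicate 1 against pools of 0 and 2 counts, which is no bound. Depth limits Zfp36l1, Zcchc11 and Dcp1b, each under 120 counts in every library.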

Other observations

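Over 12965 tested genes, messages with an AU-rich, Pumilio or cytoplasmic polyadenylation element were compared by their median log2 fold changes, with no test. Those with at least 1 TATTTAT (30.6%) had a median of 0.010, and those without one 0.027, against -0.030 and 0.031 without wildtype replicate 1. Those with TGTANATA (26.9%) had 0.00, and those without 0.029, against -0.038 and 0.030 without that library. Those with TTTTAT or TTTTAAT in the last 100 bases (19.3%) had 0.037, and those without 0.017, and the order turned to -0.004 and 0.017 without that library. Wildtype replicate 1 itself lay at a median of -0.112 relative to the other wildtype pools for messages with this element and -0.018 for those without. Untranslated regions with an AU-rich match were longer, at a median of 2120 bases, than those without, at 844.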
